A study of Saccharomyces cerevisiae with 4 samples.

Results

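The genes described here encode 10 enzymes that carry sulfate to methionine in budding yeast: MET3, MET14, MET16, MET5, MET10, MET1, MET8, MET2, MET17 and MET6. They were chosen by gene identifier as the core of one pathway, and all 10 were found among the 7071 genes of the tables. RNA was sequenced in 4 libraries of wild-type Saccharomyces cerevisiae (strain CB67, of W303 origin), 2 given DMSO and 2 given thiolutin (20 µg/ml for 30 min), an inhibitor of yeast RNA polymerases. All the cells had first been arrested in G2/M with benomyl (80 µg/ml for 90 min) in rich glucose medium at 30 °C, so that the controls carried the arrest too. The replicates of each condition bear the letters a and b, and S. pombe cells were added to each sample before RNA extraction as a spike-in. The study used thiolutin to stop transcription, and the comparison asks how the RNA of each enzyme gene stood after the treatment.

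Yeast takes up sulfate and activates it with ATP, reduces it to sulfide, and joins the sulfide to a carbon chain made from aspartate to give homocysteine, which is then methylated to methionine. In rich medium the pathway is held low, and its genes are switched on by the activator Met4 when sulfur amino acids run short. Met4 does not bind DNA well by itself and is brought to promoters by Cbf1 and by the related zinc finger proteins Met31 and Met32. Cbf1 binds the letters CACGTG, and Met31 and Met32 bind a site with the core TGTGGC.

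The promoters of the members share this sequence feature, which was not used to choose them. The motifs are known from the literature of this pathway, however, so the match is not independent of the choice of genes. Sequences were read from the S. cerevisiae R64 assembly of RefSeq (the sacCer3 build), in which all 10 genes have the length given in the tables. That assembly is of strain S288C, so the letters may differ in the strain studied. Both strands were searched. From 600 bases before the gene start to 50 after it, CACGTG was present at 10 of 10 members and in 7.40% of 5985 such windows over all protein-coding genes. TCACGTG, the same core preceded by T, was also present at 10 of 10 members and in 5.31% of all windows. This longer form was not among the cores first planned for the search. The match nearest to the gene start is shown for each member, on the strand of the gene and with CACGTG in capitals, because it is the one feature all of them hold.
MET3 (chrX:455867-455896, plus strand): gaccagaaaagtCACGTGtaattttgtaac
MET14 (chrXI:439596-439625, minus strand): tgccactaatttCACGTGatcaatatattt
MET16 (chrXVI:877793-877822, minus strand): ttatcatcatttCACGTGgctagtaaaaga
MET5 (chrX:683572-683601, minus strand): aatgaatttcatCACGTGcgtattatctct
MET10 (chrVI:213069-213098, plus strand): agcttatagaagCACGTGaccacaattcac
MET1 (chrXI:571332-571361, plus strand): aatgccattatgCACGTGacattacaaatt
MET8 (chrII:650147-650176, plus strand): gcgtcataatttCACGTGttataatagcca
MET2 (chrXIV:116984-117013, plus strand): ttgacgtattttCACGTGatgcgcctcact
MET17 (chrXII:732230-732259, plus strand): aatggcaaatggCACGTGaagctgtcgata
MET6 (chrV:342645-342674, minus strand): caggaaatatttCACGTGacttacaaacag

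The core TGTGGC was present in the same windows at 7 of 10 members (MET3, MET14, MET16, MET5, MET10, MET2 and MET6) and in 18.5% of all windows. It stood at MET2, at MET16 and, next to a further Cbf1 core, at MET6. These 3 windows are shown because their genes had the largest rise, the next largest rise and the smallest change among the members tested with TMM normalization, explained below. Capitals mark GCCACA, which is TGTGGC read on the other strand, as well as CACGTG at MET6 and TGACTC, the core bound by Gcn4, the activator of amino acid synthesis genes, at MET16.
MET2 (chrXIV:117011-117040, plus strand): actgcggaaggcGCCACAcattgcctgcaa
MET16 (chrXVI:877772-877801, minus strand): agtaaaagaaaaGCCACAacaTGACTCagc
MET6 (chrV:342690-342719, minus strand): aaggaccatcacGCCACAtCACGTGcacat

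The cores lay far from the gene start. Counted from the first base of the gene, the 15 matches to CACGTG began at positions from -547 to -178, and the 8 matches to TGTGGC at positions from -540 to -157. With a shorter window, from 250 bases before the start to 50 after it, CACGTG was found at 4 members (MET14, MET16, MET10 and MET8) and in 2.91% of 5987 windows, and TGTGGC at 3 members and in 7.83%. The longer window was chosen after this result was seen. TGACTC was found at 4 members in the longer window (MET16, MET5, MET8 and MET6), against 16.9% of all windows. Outside the 10 members, 19 genes tested held both CACGTG and TGTGGC in the shorter window, and by the count test used for the RNA 21.1% of them were called higher with thiolutin and 15.8% lower, against 18.5% and 17.6% of all genes tested. In the longer window 84 such genes were tested, of which 32.1% were called higher and 15.5% lower, with a median log2 fold change of 0.03. These matches are letters in a window, and binding was not measured.

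**Figure D1:**
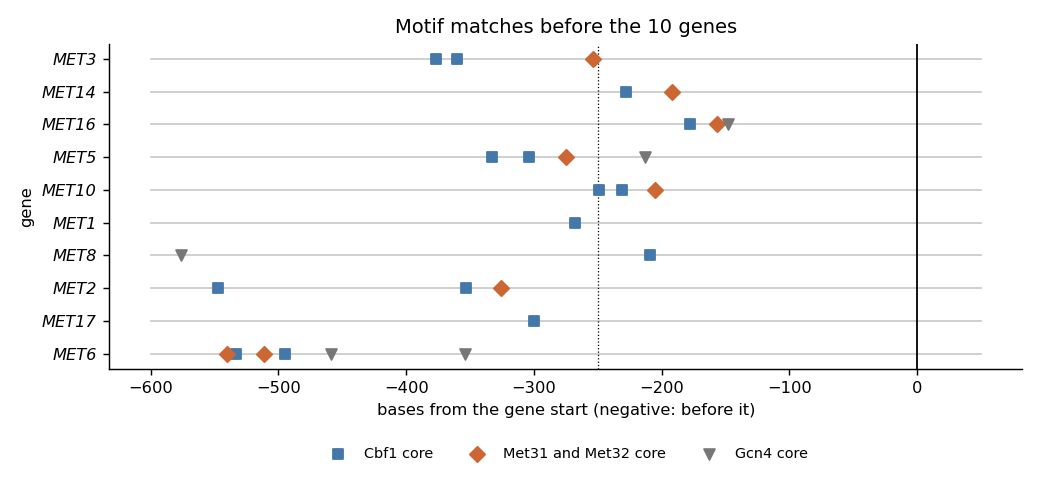
Each row is the stretch from 600 bases before to 50 bases after the start of 1 gene (x axis, bases), and the symbols mark where matches to the Cbf1 (CACGTG), Met31 and Met32 (TGTGGC) and Gcn4 (TGACTC) cores begin. Every row has at least 1 Cbf1 core, and the dotted line at 250 bases shows that 6 of the genes have theirs only farther away.

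The depth behind the values differed between libraries. The expected counts (estimated reads per gene) summed to 11598766 in the shallowest library, thiolutin replicate b, and to 48045781 in the deepest, DMSO replicate b. The rRNA genes took 80.8% and 82.4% of them with DMSO and 86.6% and 84.3% with thiolutin. Protein-coding genes took 11.8% and 11.2% with DMSO and 6.56% and 8.12% with thiolutin. The median protein-coding gene had 29 to 223 expected counts. Markers of the arrest were checked: all 6 listed G2/M genes (CLB1, CLB2, CDC5, CDC20, SWI5 and IQG1) were detected in every library, with a summed level in TPM (a level adjusted for gene length and library size) of 5.23 and 4.95 with DMSO and 1.16 and 1.88 with thiolutin. The 5 listed G1/S genes summed to 0.76 and 0.58 TPM with DMSO and 0.20 and 0.16 with thiolutin. The 4 of early G1 summed to 0.39 and 0.46 TPM with DMSO and 0.21 and 0.38 with thiolutin. Of the 6 G2/M genes 4 were lower with thiolutin by the test given next, against 17.6% of all genes tested. CLB2, the main mitotic cyclin, fell by the most (log2 fold change -2.13, edgeR adjusted p = 4.74e-05). The other 2, CDC20 (-0.15) and SWI5 (0.61), were not called. Of the 4 G1/S genes tested 1, CLB5, was lower (-1.07). Of the 4 early G1 genes 1, CTS1, was higher (0.87, edgeR adjusted p = 0.0228), against 18.5% of all genes. The stage markers thus did not change alike, and the part of this in the results on the pathway was not tested.

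Counts were compared with edgeR's quasi-likelihood test on 5527 genes, at a threshold of 0.05 for the p adjusted over all of them by the Benjamini-Hochberg method. Each gene was placed on 2 scales. TMM normalization sets the typical gene to no change, and over all genes tested the median log2 fold change, thiolutin over DMSO, was -0.02. The S. pombe scale took the reads mapped to S. pombe as library size, and there that median was -1.01. The shift between the scales was therefore -0.99, and a gene that stood at its DMSO level on the S. pombe scale stood about 1 log2 unit above the typical gene. Within a library, the share of expected counts on protein-coding genes was also lower with thiolutin, as given above. Whether a lower value on the S. pombe scale came from less RNA per cell or from fewer cells was not tested.

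With TMM, 7 of the 9 members tested were higher with thiolutin than with DMSO (MET3, MET14, MET16, MET10, MET1, MET2 and MET17), and 0 were lower, a count that stayed at 0 for unadjusted p-values under 0.05. Over all genes tested, 18.5% were called higher and 17.6% lower. The likelihood ratio test of edgeR called 8 members higher and 0 lower, against 20.3% and 20.4% of all genes, and DESeq2 called 5 higher and 0 lower, against 15.5% and 10.2%. The median log2 fold change of the 9 members was 0.81. With S. pombe scaling 1 of the 9, MET2, was higher, and 0 were lower with or without adjustment of the p (edgeR), where 1.47% of all genes were called higher and 50.7% lower. The median of the members was there -0.14, so the direction of 6 of the 9 members turned with the scale. All 9 lay above the median of all genes on both scales. The scales use the same counts and differ only in library size, so the second is not separate support. MET8, the remaining member, had too few reads to be tested.

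Taken without any test, both thiolutin libraries lay above both DMSO libraries for 8 of the 9 members in TMM-normalized counts, as did 33.2% of all genes tested. In S. pombe-scaled counts this held for 2 of the 9, MET16 and MET2, and for 2.48% of all genes, while both thiolutin libraries lay below both DMSO libraries for MET5 and MET6 and for 75.7% of all genes. With 2 libraries against 2, an exact permutation test of a single gene cannot go below p = 0.33, so the single-gene calls rest on the spread that edgeR estimates over all genes.

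**Figure D2:**
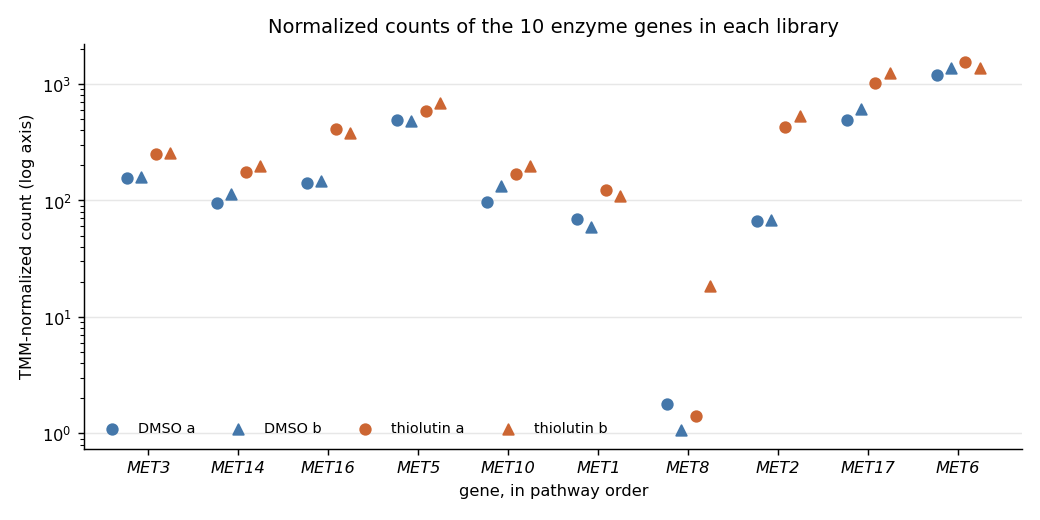
TMM-normalized counts (y axis, log scale) of the 10 genes in pathway order (x axis), with 1 point for each library, circles for letter a and triangles for letter b, blue for DMSO and orange for thiolutin. MET2 shows the widest gap between conditions, the points of MET6 overlap, and MET8 is close to the detection limit.

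The counts of single libraries given next are TMM-normalized to the mean library, replicate a before replicate b, and a value after ± is a standard error. MET3 (YJR010W) encodes ATP sulfurylase, which makes adenylyl sulfate from sulfate and ATP, and lies on chromosome X (456239 to 457774, plus strand). It had 157 and 160 normalized counts with DMSO, against 249 and 253 with thiolutin. The replicates of each condition lay close together and the conditions did not overlap, and the log2 fold change was 0.66 ± 0.17 (edgeR adjusted p = 0.0105). MET14 (YKL001C) encodes the kinase that phosphorylates adenylyl sulfate to PAPS (chromosome XI, 438777 to 439385, minus strand). It had 94.7 and 113 normalized counts with DMSO and 174 and 198 with thiolutin, again without overlap, for a log2 fold change of 0.81 ± 0.20 (edgeR adjusted p = 0.00848). Neither gene was called on the S. pombe scale. MET3 was at -0.31 (edgeR adjusted p = 0.533) and MET14 at -0.13 (edgeR adjusted p = 0.797), under the DMSO level but above the median of all genes.

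MET16 (YPR167C) encodes PAPS reductase, which turns PAPS into sulfite (chromosome XVI, 876847 to 877632, minus strand). Its normalized count was 141 and 148 with DMSO and 415 and 382 with thiolutin, or 2.77-fold, for a log2 fold change of 1.47 ± 0.16 (edgeR adjusted p = 7.89e-05). This was the largest rise after MET2. Scaled by S. pombe reads, the 4 values were 191 and 187 with DMSO and 219 and 320 with thiolutin. They did not overlap either, but the log2 fold change of 0.49 ± 0.43 did not pass the test (edgeR adjusted p = 0.311).

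Sulfite is reduced to sulfide by sulfite reductase, whose catalytic subunits are encoded by MET5 and MET10. MET5 (YJR137C, chromosome X, 678957 to 683285, minus strand) had 489 and 479 normalized counts with DMSO and 590 and 694 with thiolutin. The conditions did not overlap, but the log2 fold change of 0.39 ± 0.15 missed the threshold, with an edgeR adjusted p of 0.0592. MET10 (YFR030W, chromosome VI, 213312 to 216419, plus strand) had 97.3 and 134 normalized counts with DMSO and 169 and 198 with thiolutin, and its log2 fold change of 0.62 ± 0.22 passed narrowly, with an edgeR adjusted p of 0.0435. That MET10 was called and MET5 was not does not show that the subunits differed, and this difference was not tested. On the S. pombe scale MET5 was at -0.53 and MET10 at -0.30, and neither was called. MET5 had 665 and 605 S. pombe-scaled counts with DMSO and 311 and 581 with thiolutin, so both thiolutin libraries lay below the DMSO libraries there, replicate b by a small margin.

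The reductase carries siroheme, a heme-like cofactor made by the enzymes of MET1 and MET8. MET1 (YKR069W, chromosome XI, 571612 to 573393, plus strand) had 69.9 and 58.9 normalized counts with DMSO and 124 and 110 with thiolutin. With TMM its log2 fold change came to 0.89 ± 0.23 (edgeR adjusted p = 0.0119), and to -0.14 on the S. pombe scale (edgeR adjusted p = 0.775). MET8 (YBR213W, chromosome II, 650368 to 651192, plus strand) had expected counts of 2 and 2 with DMSO and 1 and 5 with thiolutin. In 3 of the 4 libraries it lay below 3 counts, so its change was not detectable at this depth, and no fold is given.

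The carbon chain enters through MET2 (YNL277W), which encodes homoserine O-acetyltransferase (chromosome XIV, 117349 to 118809, plus strand). Before normalization MET2 had 75 and 129 expected counts with DMSO, among the lowest of the members, against 305 and 144 with thiolutin, although thiolutin replicate b was the shallowest library. Its normalized count was 66.4 and 68.4 with DMSO and 429 and 528 with thiolutin. This was a rise of 2.80 ± 0.18 on the log2 scale, or 6.99-fold (edgeR adjusted p = 1.62e-06). With the quasi-likelihood test MET2 was the only member past 1e-05, which 0.796% of all genes passed upward and 0.199% downward. The study used this stricter threshold with its own edgeR model, so its calls may differ. MET16 and MET17 also passed it with edgeR's likelihood ratio test (adjusted p = 4.92e-15 and 3.32e-07). Both did so with DESeq2 too (adjusted p = 4.21e-08 and 1.92e-06). MET2 also rose on the S. pombe scale, from 90.3 and 86.4 to 226 and 443 counts, a log2 fold change of 1.90 ± 0.44 (edgeR adjusted p = 1.18e-04). The rise was thus present on both scales. Within the letters it was 1.32 in a and 2.35 in b on the S. pombe scale, and 2.68 and 2.94 with TMM.

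MET17 (YLR303W) encodes the enzyme that joins sulfide to O-acetylhomoserine and so yields homocysteine (chromosome XII, 732542 to 733876, plus strand). Its normalized count was 496 and 612 with DMSO and 1026 and 1251 with thiolutin, which amounts to 1.03 ± 0.17 on the log2 scale (edgeR adjusted p = 9.44e-04). With S. pombe scaling it was at 0.12 (edgeR adjusted p = 0.809), and the libraries of the 2 conditions overlapped. YLR302C overlaps MET17 on the other strand and had at most 1 count in a library, and the reads were counted by strand. MET6 (YER091C) encodes the cobalamin-independent methionine synthase, the last step (chromosome V, 339864 to 342167, minus strand). It was the member with the highest counts, 1188 and 1368 normalized counts with DMSO and 1533 and 1365 with thiolutin. These values overlapped, and the log2 fold change of 0.18 ± 0.15 was not called (edgeR adjusted p = 0.369). In S. pombe-scaled counts MET6 had 1616 and 1728 with DMSO and 808 and 1143 with thiolutin, which do not overlap, but its log2 fold change of -0.78 ± 0.43 did not pass the test (edgeR adjusted p = 0.110).

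**Figure D3:**
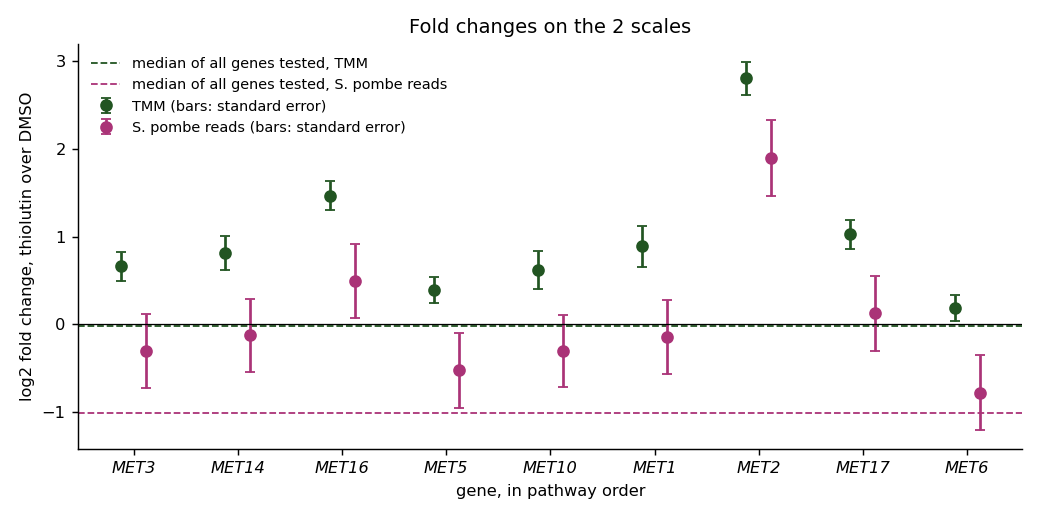
Log2 fold changes of thiolutin over DMSO (y axis) for the 9 genes tested (x axis), with TMM in green and with S. pombe reads as library size in purple. Points are fitted values and bars standard errors from 4 libraries, and the dashed lines mark the medians of all genes tested, -0.02 and -1.01; all points lie above the line of their scale, and MET2 alone is called on both.

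The calls for the smaller changes were not all kept when a DMSO library was left out. That condition then held 1 library, and the spread came from the thiolutin libraries alone. The log2 fold change itself moved little for MET3 (0.65 without DMSO replicate a and 0.68 without b). It moved more for MET10 (0.44 and 0.90). Without DMSO replicate a 4 members were called higher with TMM (MET16, MET1, MET2 and MET17), and without DMSO replicate b also 4 (MET14, MET16, MET2 and MET17). MET16, MET2 and MET17 were called in all 4 fits that left out a library, with log2 fold changes of at least 1.40, 2.65 and 0.86. The call of MET2 on the S. pombe scale was lost without DMSO replicate a (log2 fold change 1.94) and without DMSO replicate b (1.88). Calls on that scale also differed with the thiolutin library kept: without thiolutin replicate a, 3 members were called higher and 1 lower, and without thiolutin replicate b 1 was called higher and 6 lower. The median of the 9 members was -0.54 between the libraries of letter a and 0.22 between those of letter b on the S. pombe scale. The median of all genes tested differed in the same way, -1.36 and -0.66. With TMM the median of the members was 0.82 in a and 0.81 in b.

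The balance between the enzymes does not depend on a scale between libraries, since it compares genes within 1 library. Levels were compared as reads per kilobase of gene, given as the share of the sum over the 10 members. With DMSO 33.2% and 33.6% fell to MET6, and with thiolutin 22.4% and 18.7%. MET17 took 23.9% and 26.0% with DMSO and 25.9% and 29.5% with thiolutin. MET6 was thus the highest of the 10 in both DMSO libraries and MET17 the highest in both thiolutin libraries. The ratio of MET17 to MET6 went from 0.720 and 0.773 to 1.15 and 1.58, with no overlap.

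MET2 moved from the seventh place in this order to the fourth, next to MET14. Its share was 2.92% and 2.65% with DMSO and 9.90% and 11.4% with thiolutin. The ratio of MET2, which makes the carbon acceptor, to MET17, which uses it, was 0.122 and 0.102 with DMSO and 0.382 and 0.386 with thiolutin. These ratios did not overlap, and they show that the members changed unequally within a library. MET16 went from 11.5% and 10.7% to 17.8% and 15.3%, while MET5 went from 7.27% and 6.27% to 4.60% and 5.05%. MET10 had 2.01% and 2.45% with DMSO and 1.83% and 2.01% with thiolutin, and these did not overlap before rounding, by a very small margin. The shares of MET14 (9.65% to 10.5% over the 4 libraries) and MET1 (1.87% to 2.52%) overlapped between the conditions.

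**Figure D4:**
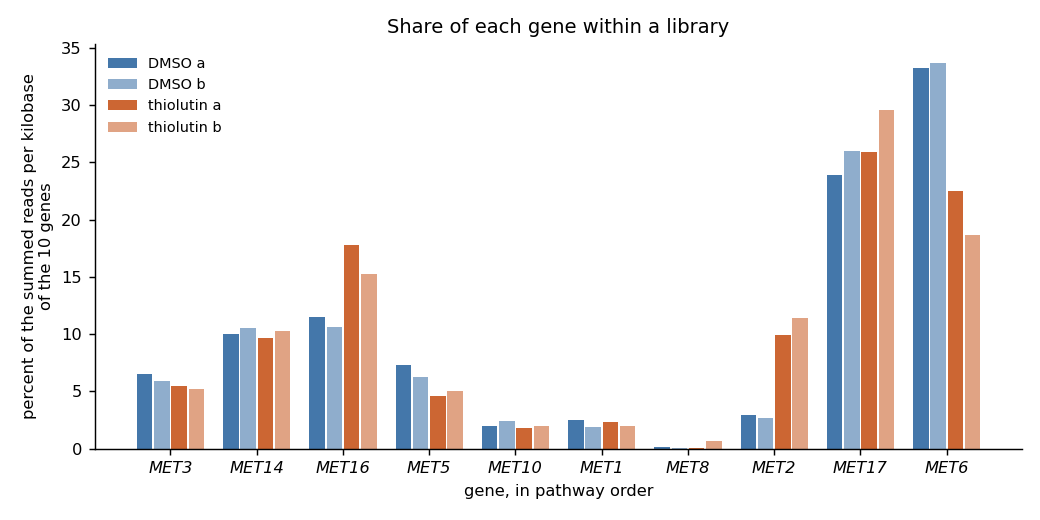
Share of each gene in the summed reads per kilobase of the 10 genes (y axis, percent, from 0), with 1 bar for each library and genes in pathway order (x axis). The bars of MET6 are shorter with thiolutin (orange) than with DMSO (blue), and those of MET2 and MET16 are taller.

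The deposited TPM values give a like order of levels. With DMSO it was MET6 (3.11 and 3.26 TPM), MET17 (2.29 and 2.57), MET16 (1.14 and 1.09), MET14 (1.02 and 1.11), MET5 (0.67 and 0.60), MET3 (0.62 and 0.58), MET2 (0.28 and 0.26), MET10 (0.19 and 0.24), MET1 (0.24 and 0.18) and MET8 (0.01 in both). The neighbours MET16 and MET14, MET5 and MET3, and MET10 and MET1 overlapped in this order. With thiolutin MET2 had 0.74 and 1.42 TPM and MET14 0.77 and 1.37 TPM, so that they were level with each other. TPM values are small throughout because the small rRNA genes RDN58 took 81.0% to 82.7% of all TPM. Among protein-coding genes, MET6 stood at the 85.2 and 87.3 percentile of the level per kilobase with DMSO and MET2 at the 35.8 and 35.7 percentile. With thiolutin MET2 stood at the 75.5 and 78.6 percentile. The 10 genes together held 0.0361% and 0.0415% of the TPM of protein-coding genes with DMSO and 0.0551% and 0.0678% with thiolutin.

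Other genes of the same metabolism were taken from a list of 22 genes around the pathway, all of which were tested. With TMM 11 of them were higher with thiolutin and 2 lower, against 18.5% and 17.6% of all genes, and their median log2 fold change was 0.66. After S. pombe scaling 0 were higher (0 also before adjustment, edgeR) and 6 lower, against 1.47% and 50.7% of all genes, and the median was -0.29, against -1.01 for all genes. The 2 largest rises, HOM3 and HOM2, were in genes of the route from aspartate to homoserine, the substrate of the MET2 enzyme. HOM3 (aspartate kinase) went from 124 and 142 to 441 and 429 normalized counts, a log2 fold change of 1.71 ± 0.16 (edgeR adjusted p = 3.29e-05). HOM2 (aspartate semialdehyde dehydrogenase) had 1.57 and HOM6 (homoserine dehydrogenase) 0.89, both called. All 3 steps before MET2 were thus higher relative to the typical gene. With S. pombe scaling HOM3 was at 0.75, HOM2 at 0.65 and HOM6 at -0.05, none of them called.

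STR3, which encodes a cystathionine beta-lyase, reached 1.54 with TMM, but on counts of only 8 to 45 in a library. ADE3, of one-carbon metabolism, had 1.26 and MET22, whose product removes the 3'-phosphoadenosine phosphate left by PAPS reduction, had 1.00. CYS3, CYS4 and STR2, of the route between homocysteine and cysteine, were called with 0.98, 0.71 and 0.73, and so were MEU1 (0.71) and SAH1 (0.62). SAM1 and SAM2, which encode the S-adenosylmethionine synthetases after MET6, were near the typical gene, at 0.06 and -0.17, neither called. SAM1 and SAM2 are close paralogs that can share reads. The falls were in IRC7, which had -1.87 ± 0.16 (edgeR adjusted p = 1.39e-05), and in MET12, for a methylenetetrahydrofolate reductase, which had -0.62.

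The regulators of the pathway and its permeases changed in both directions. Of 10 listed genes 9 were tested, and with TMM 3 were higher and 3 lower, against 18.5% and 17.6% of all genes. MET28 and MET32, for partners of Met4 at promoters, had log2 fold changes of 2.96 and 2.85, and MUP3, for a methionine permease, had 2.75. These 3 were also called higher on the S. pombe scale, at 1.96, 1.80 and 1.70. Their expected counts with DMSO were low, 21 and 48 for MET28, 20 and 22 for MET32, and 26 and 35 for MUP3. MET30, for the ubiquitin ligase subunit that restrains Met4, had -0.69, MET31 -0.72 and MUP1, the high-affinity methionine permease, -1.39. MET4 itself had -0.69 and was not called with TMM (edgeR adjusted p = 0.110), on 8 to 118 counts in a library. CBF1 had 0.19 (edgeR adjusted p = 0.474).

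**Figure D5:**
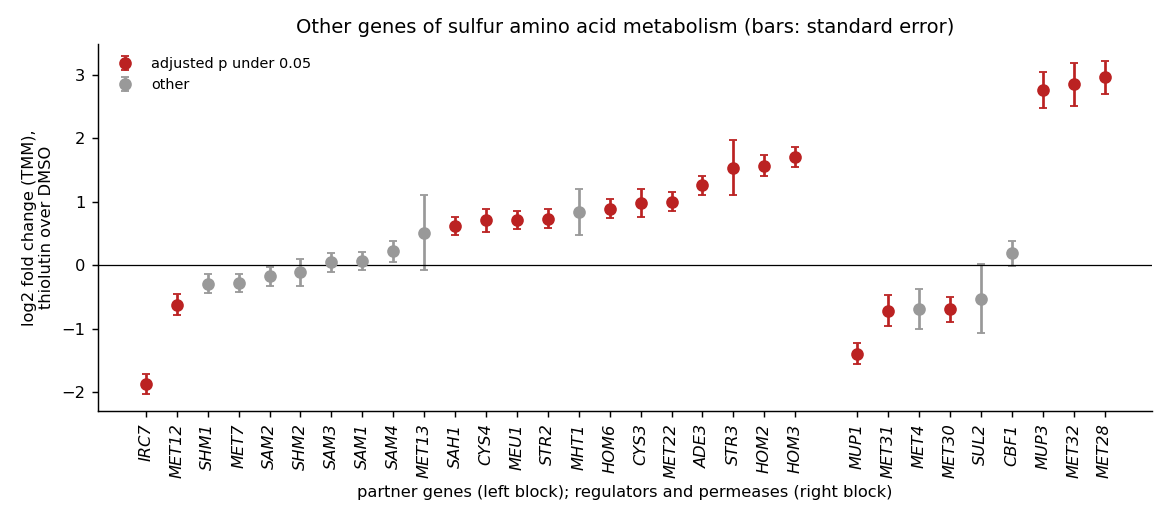
Log2 fold changes with TMM (y axis, thiolutin over DMSO) for the 22 partner genes and the 9 regulator and permease genes tested (x axis, each block in order of its values), with bars for standard errors. Red points passed an adjusted p of 0.05; among the partners 11 red points lie above 0 and 2 below, and MET28, MET32 and MUP3 are the highest of the regulators and permeases.

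Position on the chromosome was not shared by the members, which lie on 8 chromosomes. Their nearest tested neighbours were called about as often as all genes. Genes that were not tested were passed over, so these are not always the adjacent genes. Of the 20 nearest tested genes on both sides, 4 were higher and 4 lower with TMM, against 18.5% and 17.6% of all genes, with a median log2 fold change of 0.05. With S. pombe scaling 0 were higher (0 also before adjustment, edgeR) and 9 lower, against 1.47% and 50.7% of all genes. MET2 lies between CAF120 and BOR1, which had log2 fold changes of -1.67 (edgeR adjusted p = 0.0429) and -2.18 (edgeR adjusted p = 3.20e-04). Both of these nearest tested genes thus moved opposite to MET2, but their values after thiolutin rest on few reads. For CAF120 the estimated reads fell from 27 (replicate a) and 40 (replicate b) to 6 and 1, near the detection limit. For BOR1 they fell from 156 and 221 to 23 and 5. NUT2, which is read away from MET16 across a gap of 443 bases, had -0.23 and was not called. VPS1 next to MET14 (0.86), BET3 next to MET1 (0.50), HRI1 next to MET17 (0.50) and TRP2 next to MET6 (0.69) were called higher, and MRP2 next to MET16 (-0.68) and TTI2 next to MET5 (-0.84) lower.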

How the data were processed

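Reads (single-end, stranded) were mapped by the authors with STAR 2.7.3a and summarised per gene with RSEM 1.3.1. The deposited expected counts are estimated reads per gene without normalization, in which reads with several origins are divided. The deposited TPM values are levels adjusted for gene length and scaled to the same sum in every library. The S. pombe reads per library were those the study lists, mapped with Bowtie 1.2.2; whether some of them also matched S. cerevisiae was not examined here. The build in the submitters' processing notes is sacCer3. Of 7071 identifiers, 6006 matched the R64 annotation, which also gave symbols and coordinates.

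Expected counts were rounded, filtered with filterByExpr, normalized by TMM and compared with edgeR 4.0.16 in R 4.3.3; standard errors are the size of the log2 fold change over the root of the F statistic. DESeq2 1.42.0 served as an alternative. Libraries of the same condition were compared by a chi-square test over protein-coding genes, gave 4.53 (DMSO) and 6.26 (thiolutin) per degree of freedom, and so were counted as separate samples. The labels do not say whether they were separate cultures, so p-values measure the spread between these libraries, which may be technical. The letters a and b were not used as pairs. The tests were tested on simulated counts. The members, the gene lists and the tests were chosen with earlier results of these data known. All 10 members are named, and from the lists and neighbours the genes past the threshold, up to 6 a direction; HOM6, CYS4, STR2, MEU1, SAH1, SAM1, SAM2, MET4, CBF1 and NUT2 were named after their values were seen.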

Additional observations from a re-analysis of the deposited data

How the results depend on the processing

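Against 7 members called higher and 0 lower, library totals gave 1 and 1 (MET6 lower), S. pombe reads 1 higher, a minimum of 50 counts in every library 3 of the 8 members it left, and a threshold of 1e-05 gave 1. The median log2 fold change of the members, 0.81, became -0.14 with S. pombe reads and -0.14 with library totals, 0.43 with the minimum of 50, 0.84 with DESeq2 size factors, 0.86 with DESeq2's test, 0.84 with no filter and 0.85 with the replicate block. With S. pombe reads and library totals, the values turned negative for MET3 (-0.31 and -0.31), MET14 (-0.13 and -0.14), MET5 (-0.53 and -0.54), MET10 (-0.30 and -0.32), MET1 (-0.14 and -0.11) and MET6 (-0.78 and -0.77), as follows from the shift of all genes, and MET6 also with the minimum of 50 (-0.12), where the cause was not tested. DESeq2's test lost MET10 and MET1.

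Of the partner genes (11 higher, 2 lower), S. pombe reads called 0 and 6, library totals 2 and 9, and DESeq2 1 lower. The minimum of 50 counts called 7 and 4 of the 16 it left, and the threshold of 1e-05 0 and 0. Of the regulators and permeases (3 higher, 3 lower), the threshold of 1e-05 called 0 and 0. With S. pombe reads 5 were lower, with library totals 6 and with DESeq2 1. The minimum of 50 left only 1 of these genes, CBF1, which the main fit had not called. It called 0 and 0, but none of the genes called in the main fit was tested there. Of the neighbours (4 higher, 4 lower), S. pombe reads called 0 and 9, library totals 0 and 14, and DESeq2 1 lower. The minimum of 50 counts called 2 and 1 of the 10 it left, and the threshold of 1e-05 0 and 0.

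Leaving out 1 library at a time, with the lone sample of a condition assumed to vary like the others, gave 4 to 7 members higher and a median of 0.71 to 0.90. Without thiolutin replicate a MET1 was lost and MET5 gained. The partner genes had 4 to 12 higher and 1 to 3 lower, the regulators and permeases 3 to 3 higher and 1 to 3 lower, and the neighbours 0 to 5 higher and 1 to 4 lower. On the S. pombe scale, where leaving out libraries was chosen after seeing the data, 0 to 3 members were higher and 0 to 6 lower, the median ran from -0.57 to 0.14, and the sign turned for MET3 (-0.66 to 0.034), MET14 (-0.57 to 0.28), MET10 (-0.78 to 0.12), MET1 (-0.36 to 0.14) and MET17 (-0.42 to 0.53).

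The replicate letters are not stated to mark shared cultures or days, and same-letter libraries deviated together only weakly (correlation 0.0512 over genes). A fit with the replicate block called 8 members higher, adding MET5 (edgeR adjusted p = 0.0419), and 1 member higher on the S. pombe scale. With the window of 600 bases, also chosen after seeing the data, the promoter matches went to 10 members for CACGTG, 7 for TGTGGC, 4 for TGACTC and 7 for the first pair together. In TPM, rRNA takes most of the total, and scaling TPM to protein-coding genes moved the values of 8 members.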
